A study of Mus musculus with 35 samples.

Results

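The cytochrome P450 genes are described here in medullary epithelium of the mouse thymus (mTECs), whose cells switch on genes of many peripheral tissues and show the products to maturing T cells. The genes were chosen by name, as every annotated gene of the array whose symbol is Cyp followed by a digit, and by detection on at least 2 arrays of any group at a detection p under 0.05. This gave 70 of the 87 P450 genes on the array, out of 16972 genes tested. Total RNA of mTECs isolated by fluorescence-activated sorting from mice was read on Illumina mouse bead arrays. The cells were sorted as positive or negative for each of 6 tissue-restricted antigens, with antibodies against Pdpn, Gp2, Cea1 and Tspan8 and from reporter mice for Gad1 and Ins2. The 12 groups were Pdpn-positive (3 arrays) and Pdpn-negative cells (3), Gp2-positive (2) and Gp2-negative cells (3), Gad1-positive (3) and Gad1-negative cells (3), Cea1-positive (3) and Cea1-negative cells (3), Ins2-positive (3) and Ins2-negative cells (2), and Tspan8-positive (3) and Tspan8-negative cells (3). A further Ins2-negative array, replicate 2, had no usable unnormalized signal and was not fitted, which left 34 of 35 arrays. The labels give no strain, age or reporter allele. Arrays of 1 group are labelled as biological replicates, and nothing says whether these came from separate animals, so the p-values measure the spread between these arrays, which may be technical.

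Replicates correlated at 0.978 to 0.994 (Pearson, log2 signals). The share of detected probes was lower in positive cells of the Pdpn (54.4% to 56.0%, against 57.2% to 59.5% in Pdpn-negative cells), Gp2 (47.1% to 54.1%, against 57% to 60.8% in Gp2-negative cells), Ins2 (50.2% to 52.5%, against 54.8% to 57.3% in Ins2-negative cells) and Tspan8 sorts (54.3% to 55%, against 58.1% to 58.6% in Tspan8-negative cells). It was higher in Gad1-positive cells (55.8% to 57.3%, against 51.5% to 52.4% in Gad1-negative cells) and overlapped in the Cea1 sort (52.4% to 54.5% in Cea1-positive and 53% to 54.6% in Cea1-negative cells). The part of these shares in the P450 differences was not tested. The medullary markers Aire, Fezf2, Cd80, H2-Aa, Krt5 and Krt14 were detected on every fitted array. Epcam, an epithelial surface protein, was detected on all arrays of the Tspan8 sort and on no array of the Cea1 sort. Values below are log2 signals after background correction and quantile normalization. The lowest signal detected per array lay between 4.28 and 4.50 on this scale. A gene was called where the adjusted p of limma for positive minus negative cells was under 0.05, after Benjamini-Hochberg adjustment over all genes of that sort. In pools of sorted cells, a change in the share of cells that express a gene and a change in RNA per expressing cell cannot be told apart.

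P450 enzymes are haem proteins that insert 1 atom of molecular oxygen into a substrate, with electrons passed on by P450 reductase or, in mitochondria, by ferredoxin. Families 1 to 4 act largely on foreign compounds and fatty acids and are best known from liver, gut, airway, nasal mucosa and skin. The higher-numbered families mostly make or break down single endogenous molecules: sterols, bile acids, steroid hormones, retinoic acid and vitamin D. In humans, several P450 enzymes of the liver and adrenal cortex are known autoantigens. Display of P450 products by mTECs was not measured here.

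The family moved in opposite directions in different sorts. In Gad1-positive cells 33 of the 70 genes rose and 2 fell, where 20.1% of all genes rose and 19.7% fell (39.8% called in all). In Ins2-positive cells 27 rose and 4 fell (17.3% and 18.5% of all genes, 35.8% in all), in Cea1-positive cells 21 rose and 7 fell (13.9% and 16.4%, 30.3% in all), and in Tspan8-positive cells 27 rose and 11 fell (19.4% and 25.0%, 44.3% in all). The Pdpn and Gp2 sorts ran the other way. In Pdpn-positive cells 6 rose and 26 fell, against 18.4% and 20.0% of all genes (38.5% in all). In Gp2-positive cells 7 rose and 22 fell, against 18.0% and 22.0% (40.1% in all). When arrays were instead scaled to a common median, the Ins2 split became 22 higher and 8 lower. That scaling put the median difference of all genes at -0.26 in the Gp2 sort and -0.28 in the Ins2 sort.

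The median difference of the 70 genes was 0.44 in the Gad1 sort, 0.33 in the Ins2 sort, 0.10 in the Cea1 sort and 0.10 in the Tspan8 sort on the log2 scale, where the median of all genes was -0.01, -0.01, -0.04 and -0.03. In the Pdpn and Gp2 sorts it was -0.22 and -0.22, where all genes had medians of 0 and -0.03. Under median scaling the Gp2 median of the family, -0.24, was no lower than that of all genes, -0.26. The members were detected in very different numbers of groups. A total of 23 were detected in all 12 groups and 6 in a single group, and a gene seen in few groups entered through the groups in which it was high.

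**Figure D1:**
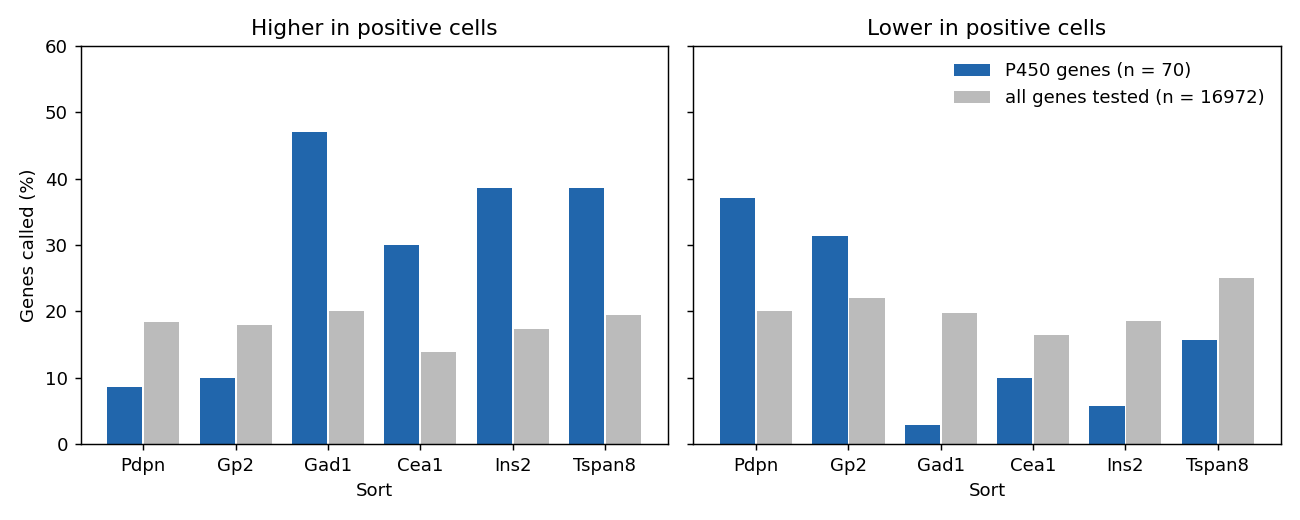
Percentage of genes called higher (left panel) and lower (right panel) in positive than in negative cells of each sort, for the 70 P450 genes (blue bars) and all 16972 genes tested (grey bars). The blue bars exceed the grey on the left in the Gad1, Cea1, Ins2 and Tspan8 sorts and on the right in the Pdpn and Gp2 sorts.

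Of the 70 genes, 56 were called in at least 1 sort and 14 in none, where 76.9% of all genes were called in at least 1 sort and 23.1% in none. A total of 20 were called only higher (25.4% of all genes), 8 only lower (23.8%), and 28 higher in 1 sort and lower in another (27.6%). The difference itself varied between the sorts for 51 of the 70 genes by the F test of limma, against 63.2% of all genes. Family 2, with 33 members, had 17 genes higher and 0 lower in Gad1-positive cells and 2 higher and 10 lower in Pdpn-positive cells. Family 4, with 14 members, had 8 higher and 0 lower in the Gad1 sort and 7 higher and 1 lower in the Tspan8 sort. Over all genes, 20.1% were higher and 19.7% lower in the Gad1 sort. The shares were 18.4% and 20.0% in the Pdpn sort and 19.4% and 25.0% in the Tspan8 sort.

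**Figure D2:**
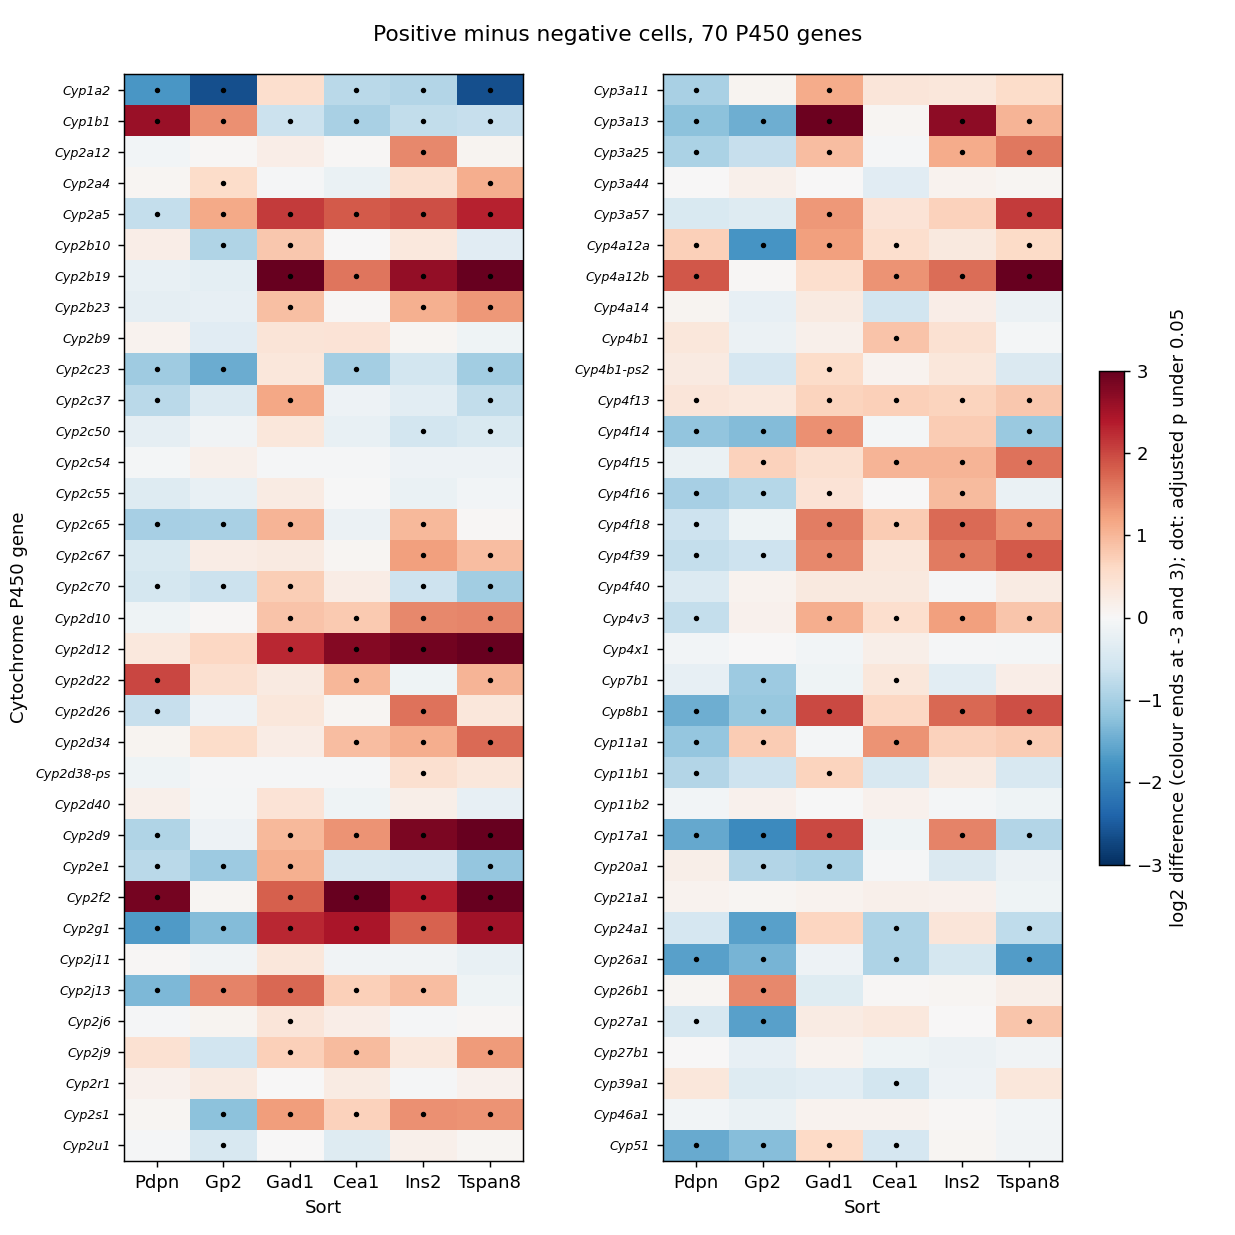
Log2 difference, positive minus negative cells, of the 70 P450 genes (rows, by family number) in the 6 sorts (columns). Red is higher and blue lower in positive cells, colours end at -3 and 3, and a dot marks an adjusted p under 0.05. Red prevails in the Gad1 and Ins2 columns of families 2, 3 and 4, and Cyp1a2 and Cyp26a1 are blue in the Pdpn, Gp2 and Tspan8 columns.

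Cyp2b19, an arachidonic acid epoxygenase of suprabasal keratinocytes in mouse skin, had the largest difference of the family in any sort. Its promoter window, 250 bases before to 50 after the start (RefSeq, GRCm38.p6, chr7:26756892-26757191, plus strand), is printed because the gene tops the list. Promoter windows here were searched on both strands for TATAAA (the TATA box), GCGTG (the core of the element bound by the aryl hydrocarbon receptor) and TGANTCA (the AP-1 element), and matches are in capitals. The Cyp2b19 window holds none of the 3.
Cyp2b19: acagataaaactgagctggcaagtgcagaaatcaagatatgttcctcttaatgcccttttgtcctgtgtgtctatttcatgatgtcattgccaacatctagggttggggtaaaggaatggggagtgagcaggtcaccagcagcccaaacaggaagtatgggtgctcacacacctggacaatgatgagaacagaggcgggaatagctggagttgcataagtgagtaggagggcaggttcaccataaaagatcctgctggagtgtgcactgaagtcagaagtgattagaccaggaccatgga
These motifs were present in 13.6%, 32.4% and 7.8% of the 32851 promoter windows of this length. A missing match says only that these letters are not in the window.

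In Tspan8-positive cells Cyp2b19 had log2 signals of 11.30, 11.80 and 11.78, against 6.21, 6.29 and 6.48 in Tspan8-negative cells. All positive arrays were far above all negative ones, a difference of 5.30 ± 0.22 (SE) or 39.4-fold, with a limma adjusted p of 1.4e-19. Gad1-positive cells had 8.84, 8.99 and 9.00, against 5.50, 6.16 and 6.20 in Gad1-negative cells, and the difference was 2.99 ± 0.22 (limma adjusted p = 5.6e-13). The groups did not overlap there either. In Ins2-positive cells the signals were 9.92, 10.07 and 9.61, against 7.22 and 7.26 in Ins2-negative cells (2.63 ± 0.25, limma adjusted p = 1.8e-10). Cea1-positive cells had 8.27, 8.60 and 8.57, against 6.75, 6.91 and 6.97 in Cea1-negative cells (1.60 ± 0.22, limma adjusted p = 5.8e-07). The Cyp2b19 gain was thus seen on every array of 4 sorts, and it was larger in the Tspan8 sort than in the Gad1 sort by 2.31 ± 0.31 (limma adjusted p = 3.0e-07).

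Cyp2b19 was not called in the Pdpn and Gp2 sorts. Pdpn-positive cells had Cyp2b19 signals of 8.10, 7.76 and 7.95 and Pdpn-negative cells 7.62, 8.36 and 8.53, which overlapped (limma adjusted p = 0.45). Gp2-positive cells had 8.05 and 7.02, against 7.76, 8.17 and 7.55 in Gp2-negative cells, a difference of -0.29 ± 0.25 (limma adjusted p = 0.38). The Gp2 value hung on 1 array, since without Gp2-positive replicate 1 the Cyp2b19 difference was -0.81 (limma adjusted p = 0.023), and median scaling also gave -0.81 (limma adjusted p = 0.036). A second Cyp2b19 probe near the floor, averaging 4.58, was called in the Tspan8 sort alone (0.62, limma adjusted p = 0.045) and gave -0.10 in the Gad1 sort, 0.00 in the Cea1 sort and 0.42 in the Ins2 sort.

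Over the 12 group means, the Cyp2b19 level ran from 5.96 in Gad1-negative to 11.63 in Tspan8-positive cells. The 4 highest groups were Tspan8-positive, Ins2-positive (9.87), Gad1-positive (8.94) and Cea1-positive cells (8.48), and from Cea1-positive down to Ins2-negative cells (7.24) each group's arrays overlapped those of its neighbour in the order. The genes most like it over these means were Flg (r = 0.992), Kprp (0.987), Lypd5 (0.984), Psapl1 (0.980) and Atg9b (0.967). Flg encodes filaggrin of the cornified epidermis. Within the family Cyp2d12 (0.946) and Cyp3a57 (0.926) came nearest. All 10 of 10 cornified keratinocyte markers were detected in every sort: 9 rose and 0 fell in Tspan8-positive cells, with a summed level of 16.42 to 16.50 against 12.73 to 13.06 in Tspan8-negative cells. In Gad1-positive cells 10 rose (14.66 to 14.76 against 11.75 to 11.77 in Gad1-negative cells), in Ins2-positive cells 9 (15.19 to 15.62 against 13.19 to 13.32 in Ins2-negative cells) and in Cea1-positive cells 8 (14.49 to 14.77 against 13.12 to 13.39 in Cea1-negative cells). In Gp2-positive cells 7 fell (12.70 to 12.95 against 13.64 to 14.04 in Gp2-negative cells) and in Pdpn-positive cells 3 fell (13.34 to 13.96 against 13.96 to 14.03 in Pdpn-negative cells), the sorts in which Cyp2b19 was not called. Their part in the Cyp2b19 result was not tested.

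**Figure D3:**
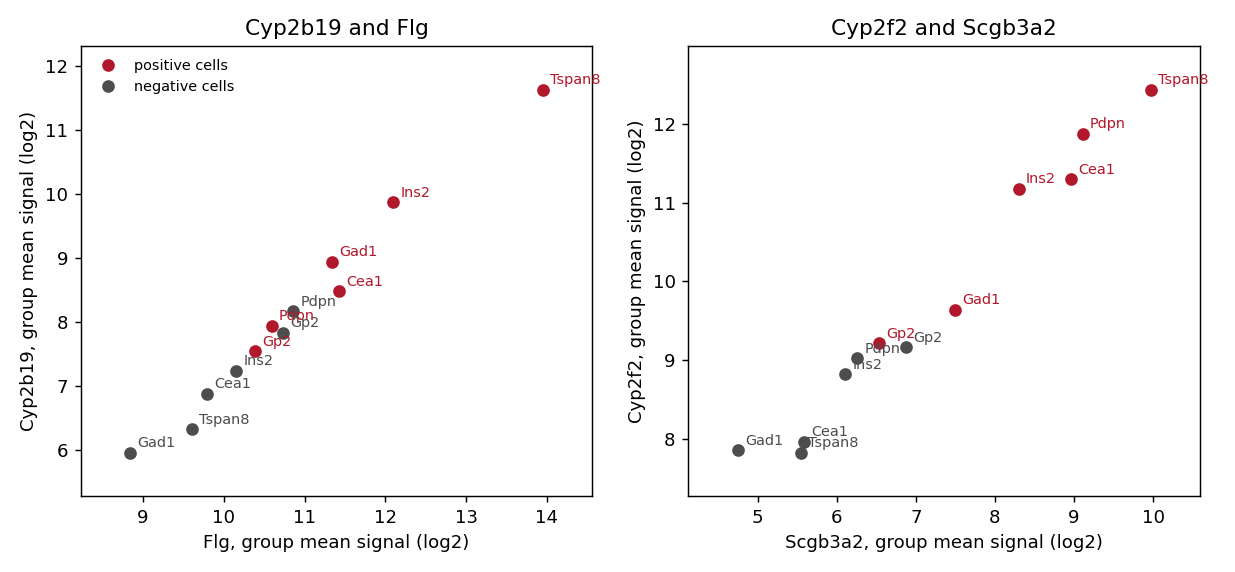
Group mean log2 signals of Cyp2b19 against Flg (left) and Cyp2f2 against Scgb3a2 (right) over the 12 groups, with positive cells in red and negative cells in grey. In both panels Tspan8-positive cells lie at the top right, at 11.63 for Cyp2b19 and 12.44 for Cyp2f2, while Gp2-positive cells lie within the range of the negative groups for Cyp2b19 and, at 9.21, just above the highest of them (9.16) for Cyp2f2.

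Cyp2f2, the P450 of club cells in the mouse airway that activates naphthalene, rose in 5 of the 6 sorts. Its promoter window (RefSeq, GRCm38.p6, chr7:27119705-27120004, plus strand) is shown beside that of Cyp2b19, as both lie in the same gene cluster and both peaked in Tspan8-positive cells. It too holds none of the 3 motifs.
Cyp2f2: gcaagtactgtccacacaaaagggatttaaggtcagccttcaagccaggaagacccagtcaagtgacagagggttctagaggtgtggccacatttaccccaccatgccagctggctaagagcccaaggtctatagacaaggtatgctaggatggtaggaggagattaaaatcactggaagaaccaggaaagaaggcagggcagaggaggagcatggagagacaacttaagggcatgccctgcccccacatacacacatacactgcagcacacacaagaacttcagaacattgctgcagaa
Tspan8-positive cells had Cyp2f2 signals of 12.43, 12.31 and 12.58, against 7.40, 8.05 and 8.00 in Tspan8-negative cells (4.62 ± 0.22, or 24.6-fold, limma adjusted p = 3.9e-18). Cea1-positive cells had 11.14, 11.37 and 11.39, against 7.73, 8.19 and 7.98 in Cea1-negative cells (3.34 ± 0.22, limma adjusted p = 5.2e-14). Pdpn-positive cells had 11.94, 11.67 and 12.04, against 8.97, 9.07 and 9.03 in Pdpn-negative cells (2.86 ± 0.22, limma adjusted p = 2.5e-12). In each of these sorts the positive arrays stood at least 2 log2 units above the negative ones.

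In Ins2-positive cells Cyp2f2 had 11.67, 11.29 and 10.57, against 8.51 and 9.13 in Ins2-negative cells (2.36 ± 0.25, limma adjusted p = 2.2e-09). In Gad1-positive cells it had 9.40, 9.81 and 9.73, against 7.57, 8.27 and 7.71 in Gad1-negative cells (1.80 ± 0.22, limma adjusted p = 3.9e-08). The Gp2 sort showed no such gap, with 9.64 and 8.78 in Gp2-positive cells, against 8.94, 9.40 and 9.14 in Gp2-negative cells (0.05 ± 0.25, limma adjusted p = 0.91). Unlike Cyp2b19, Cyp2f2 rose in the Pdpn sort. Its Pdpn difference exceeded that in the Gp2 sort by 2.81 ± 0.33 (limma adjusted p = 5.6e-08) and fell short of that in the Tspan8 sort by 1.76 ± 0.31 (limma adjusted p = 2.7e-05). Against the Cea1 sort the Pdpn difference of Cyp2f2 was lower by 0.48 ± 0.31, which did not pass (limma adjusted p = 0.28).

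By group means the order of Cyp2f2 was Tspan8-positive (12.44), Pdpn-positive (11.88), Cea1-positive (11.30), Ins2-positive (11.18) and Gad1-positive cells (9.64), then Gp2-positive cells (9.21) and the 6 negative groups (7.82 to 9.16). Of the 5 highest, the Cea1-positive and Ins2-positive arrays overlapped each other. The genes most like Cyp2f2 over the 12 group means were Serpinb11 (r = 0.985), Scgb3a2 (0.984), Gabrp (0.984), Tmem44 (0.973) and Nipal2 (0.972), and within the family Cyp4a12b (0.937). Scgb3a2 encodes a secretoglobin of the airway. Its level was 9.97 in Tspan8-positive and 5.55 in Tspan8-negative cells. Of 6 airway secretory markers with a detected probe, 5 rose in Tspan8-positive cells (summed level 14.31 to 14.47, against 11.20 to 11.49 in Tspan8-negative cells), 6 in Cea1-positive cells (13.59 to 13.73, against 11.42 to 11.81 in Cea1-negative cells) and 4 in Pdpn-positive cells, where 1 fell (13.45 to 13.75, against 12.27 to 12.28 in Pdpn-negative cells). In Gad1-positive cells 4 rose (12.83 to 13.00, against 10.38 to 10.80 in Gad1-negative cells), as did 4 in Ins2-positive cells (13.62 to 13.68, against 11.15 to 11.56 in Ins2-negative cells). In Gp2-positive cells 4 fell (11.48 to 11.61, against 12.40 to 12.58 in Gp2-negative cells). None was undetected throughout a sort, and their part in the Cyp2f2 result was not tested.

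**Figure D4:**
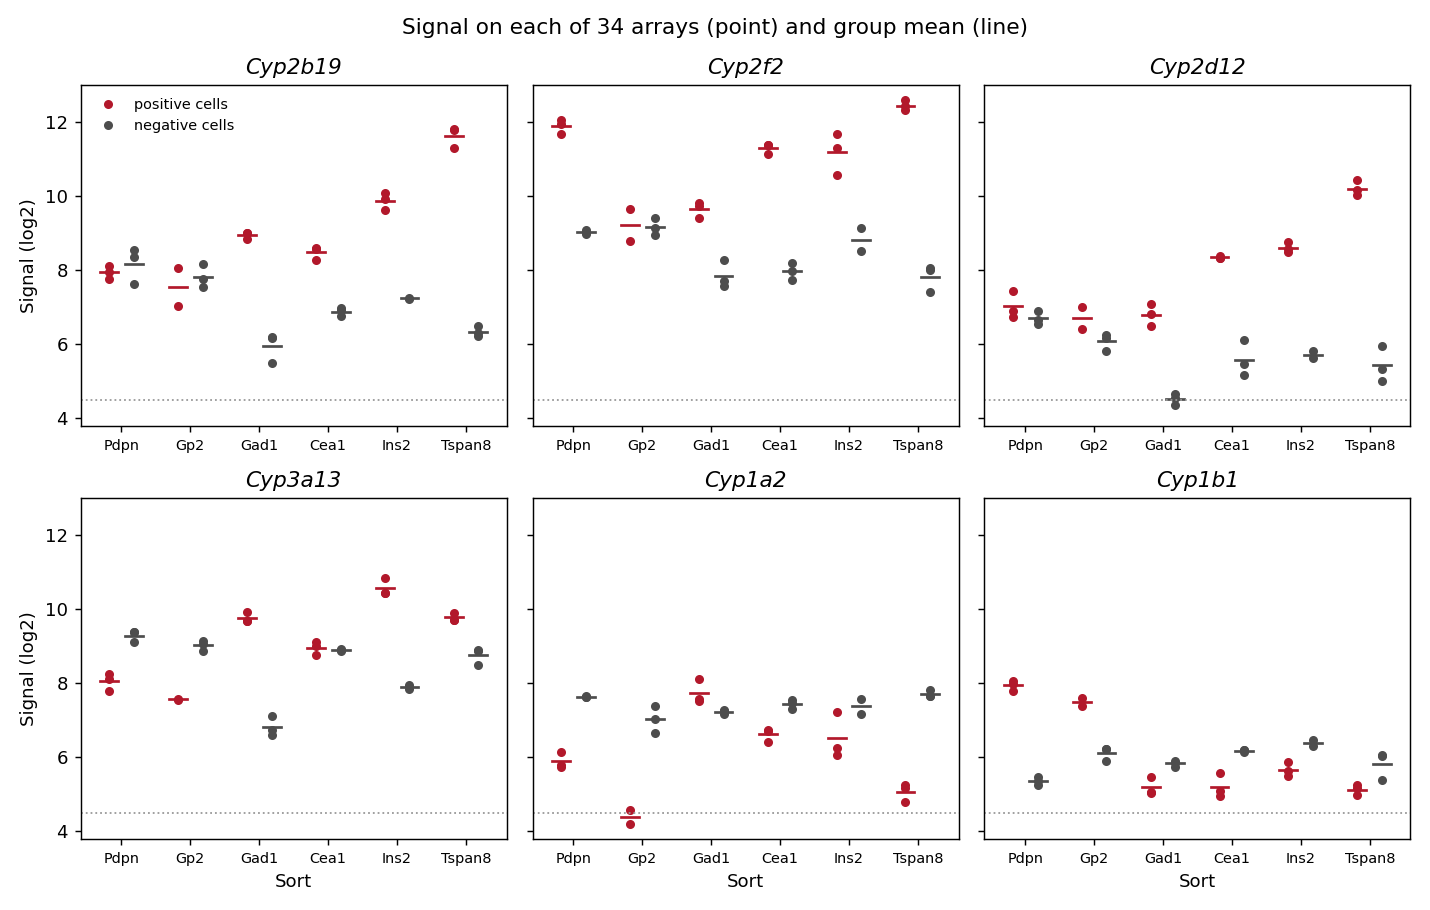
Log2 signal of 6 P450 genes on each of the 34 arrays, with positive cells (red) left of negative cells (grey) in each sort and lines for group means. The dotted line at 4.50 is the highest per-array floor of detection. Cyp2b19, Cyp2f2 and Cyp2d12 are highest in Tspan8-positive cells, Cyp3a13 in Ins2-positive cells and Cyp1b1 in Pdpn-positive cells, and Cyp1a2 is at the floor in Gp2-positive cells.

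Both genes belong to the chromosome 7 cluster of P450 genes, of which 10 were members, in the order Cyp2s1, Cyp2b10, Cyp2b9, Cyp2a4, Cyp2b23, Cyp2b19, Cyp2g1, Cyp2a5, Cyp2a12 and Cyp2f2. In this cluster 7 genes rose and 0 fell in the Tspan8, Gad1 and Ins2 sorts, and 5 rose and 0 fell in the Cea1 sort. Of all genes, 19.4%, 20.1%, 17.3% and 13.9% rose in these sorts, in that order, and 25.0%, 19.7%, 18.5% and 16.4% fell. In the Pdpn sort 1 rose and 2 fell, and in the Gp2 sort 2 rose and 3 fell. There 18.4% and 18.0% of all genes rose, and 20.0% and 22.0% fell. Within the cluster the Tspan8 differences still ranged from -0.35 for Cyp2b10 to 5.30 for Cyp2b19, and Cyp2a12, between Cyp2a5 and Cyp2f2, passed in the Ins2 sort only (1.44 ± 0.19, at least 2.56-fold because no Ins2-negative array detected it). Such lower bounds set the group without detection at the higher of its own signal and the lowest detected signal of each array.

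**Figure D5:**
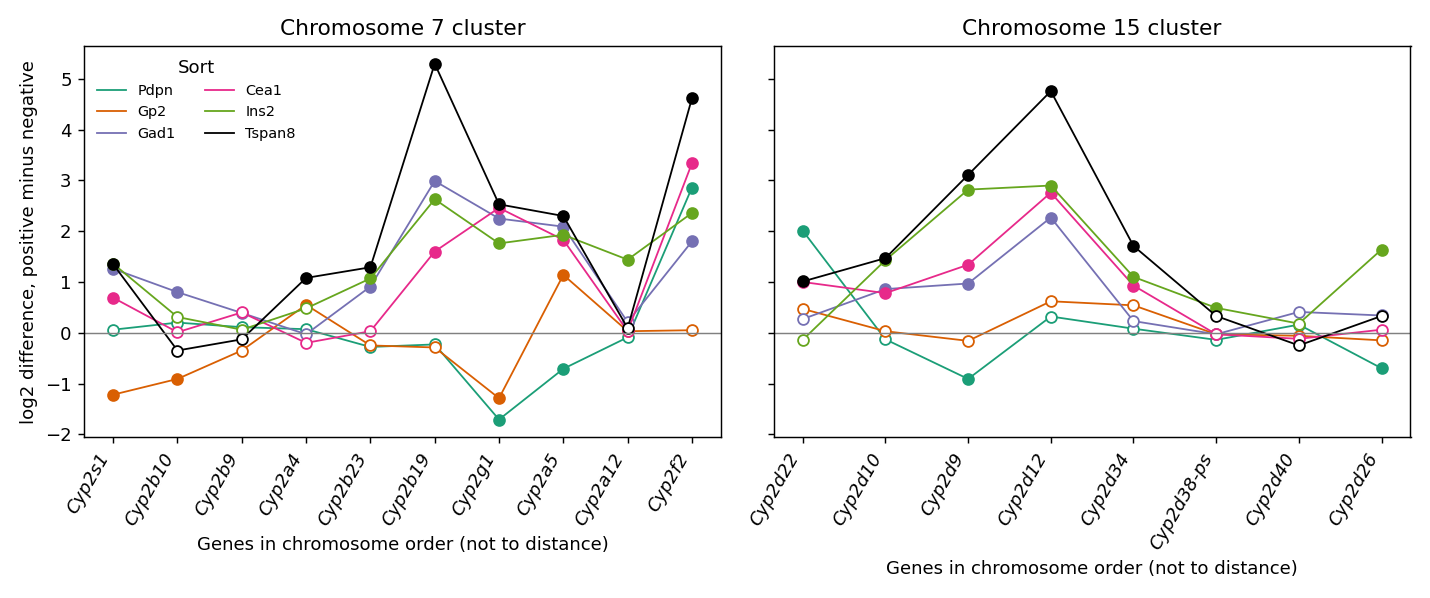
Log2 difference, positive minus negative cells, of the P450 genes of the chromosome 7 and chromosome 15 clusters in chromosome order, with 1 line for each sort and filled points for an adjusted p under 0.05. The Tspan8 line peaks at Cyp2b19 (5.30) and Cyp2f2 (4.62) on chromosome 7 and at Cyp2d12 (4.76) on chromosome 15, and is 0.09 at Cyp2a12 and -0.25 at Cyp2d40.

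Cyp2g1, a P450 of the olfactory mucosa, lies next to Cyp2b19 and was called in all 6 sorts. It had 10.72, 10.78 and 10.56 in Tspan8-positive cells, against 8.09, 8.32 and 8.06 in Tspan8-negative cells (2.53 ± 0.19, limma adjusted p = 1.6e-13). It rose also in the Cea1 (2.46 ± 0.19), Gad1 (2.25 ± 0.19) and Ins2 sorts (1.76 ± 0.21) and fell in the Pdpn and Gp2 sorts. The contrast of its Ins2 and Tspan8 differences, -0.77 ± 0.28, just passed (limma adjusted p = 0.049). Pdpn-positive cells had 8.07, 7.70 and 7.31, against 9.33, 9.57 and 9.32 in Pdpn-negative cells (-1.71 ± 0.19, limma adjusted p = 3.2e-09). Gp2-positive cells had 7.48 and 7.45, against 8.45, 9.09 and 8.73 in Gp2-negative cells (-1.29 ± 0.21, limma adjusted p = 4.0e-06). No pair of groups of Cyp2g1 overlapped in any of the 6 sorts.

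Cyp2a5, the coumarin hydroxylase of mouse liver and nasal mucosa, had group means of 10.96 to 14.31. It was called in all 6 sorts: higher by 2.30 ± 0.11 in Tspan8-positive, 2.09 ± 0.11 in Gad1-positive, 1.93 ± 0.12 in Ins2-positive, 1.83 ± 0.11 in Cea1-positive and 1.14 ± 0.12 in Gp2-positive cells, and lower by 0.71 in Pdpn-positive cells (-0.71 ± 0.11, limma adjusted p = 3.6e-06). Tspan8-positive cells had 14.22, 14.33 and 14.40, against 11.90, 12.16 and 11.98 in Tspan8-negative cells. The 4 other kept probes of Cyp2a5 had the same sign in every sort but other sizes, with -1.98 to -0.93 in the Pdpn sort and 0.76 to 1.65 in the Ins2 sort. Its close paralog Cyp2a4 rose by 1.08 ± 0.19 in Tspan8-positive cells, while its Gad1 difference was -0.03 ± 0.19. Binding of the probes of these paralogs to each other's transcripts was not checked. Cyp2s1, found in epithelia of skin and airway, rose in the Gad1, Cea1, Ins2 and Tspan8 sorts by 0.69 to 1.36 and fell by 1.22 in Gp2-positive cells. Its Cea1 call was lost without Cea1-negative replicate 3 (0.58, limma adjusted p = 0.058).

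The Cyp2d subfamily, related to the human drug-metabolising enzyme CYP2D6, forms a cluster on chromosome 15 with 8 members. In Ins2-positive cells 6 rose and 0 fell, in Tspan8-positive and Cea1-positive cells 5 rose and 0 fell, and in Gad1-positive cells 3 rose. In Pdpn-positive cells 1 rose and 2 fell. In the Gp2 sort 0 of the 8 were called. The shares of all genes that rose were 17.3% (Ins2), 19.4% (Tspan8), 13.9% (Cea1), 20.1% (Gad1) and 18.4% (Pdpn). In the Pdpn sort 20.0% of all genes fell, and in the Gp2 sort 40.1% were called. The 2 members with the largest differences were neighbours. Cyp2d12 had 10.02, 10.15 and 10.42 in Tspan8-positive cells, against 5.02, 5.34 and 5.96 in Tspan8-negative cells (4.76 ± 0.23, or 27.0-fold, limma adjusted p = 6.0e-18). In Ins2-positive cells Cyp2d12 had 8.50, 8.56 and 8.77, against 5.81 and 5.62 in Ins2-negative cells (2.90 ± 0.26, limma adjusted p = 7.6e-11). In Cea1-positive cells it had 8.34, 8.34 and 8.37, against 5.47, 6.12 and 5.16 in Cea1-negative cells (2.76 ± 0.23, limma adjusted p = 1.8e-11). The positive and negative arrays of Cyp2d12 lay well apart in these 3 sorts. Tuft cell markers moved in every sort. Of 8 tuft markers, 8 rose in Tspan8-positive cells (summed level 13.79 to 13.95, against 10.62 to 11.00 in Tspan8-negative cells), 5 in Ins2-positive cells (12.99 to 13.77, against 11.27 to 12.30 in Ins2-negative cells), 7 in Cea1-positive cells (13.94 to 14.75, against 8.60 to 8.73 in Cea1-negative cells) and 8 in Gad1-positive cells (12.16 to 12.33, against 9.48 to 9.71 in Gad1-negative cells). In Pdpn-positive cells 6 fell (11.29 to 11.45, against 12.39 to 12.82 in Pdpn-negative cells) and in Gp2-positive cells 5 fell (10.94 to 10.99, against 11.84 to 12.16 in Gp2-negative cells). No tuft marker was undetected throughout a sort. In Cea1-positive cells 4 of 6 endothelial markers also rose (8.50 to 9.45, against 7.62 to 7.72 in Cea1-negative cells), and in Gad1-positive cells 5 of 8 macrophage and dendritic markers rose (12.24 to 12.70, against 10.80 to 11.31 in Gad1-negative cells). The part of these lists in the P450 results was not tested.

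Cyp2d9, which hydroxylates testosterone in male mouse liver, had 8.40, 8.19 and 8.64 in Tspan8-positive cells, against 5.29, 5.19 and 5.44 in Tspan8-negative cells (3.11 ± 0.29, limma adjusted p = 6.7e-11). In Ins2-positive cells it had 7.50, 7.38 and 8.62, against 4.96 and 5.07 in Ins2-negative cells (2.82 ± 0.33, limma adjusted p = 1.8e-08). Cyp2d34 rose at least 3.23-fold in Tspan8-positive cells and was undetected in Tspan8-negative cells. Cyp2d22 had its largest gain in Pdpn-positive cells, with 7.25, 7.67 and 7.98, against 5.46, 5.71 and 5.68 in Pdpn-negative cells (2.01 ± 0.26, limma adjusted p = 9.3e-08). Cyp2d10 rose in the Tspan8 (1.47 ± 0.23), Ins2 (1.43 ± 0.26), Gad1 (0.86 ± 0.23) and Cea1 sorts (0.78 ± 0.23), and Cyp2d26 rose in the Ins2 sort (1.64 ± 0.29). Other probes near the floor did not pass there, with 0.24 and 0.28 for Cyp2d26 in the Ins2 sort and 0.38 for Cyp2d22 in the Pdpn sort. Mouse Cyp2d genes are near copies of each other, a probe may bind transcripts of more than the gene it is named for, and probe sequences were not used here. The same limit holds for the Cyp2a, Cyp2c and Cyp4a paralogs.

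The Cyp3a enzymes are drug and steroid hydroxylases of liver and gut. Cyp3a13 had 9.92, 9.68 and 9.68 in Gad1-positive cells, against 7.10, 6.73 and 6.61 in Gad1-negative cells (2.95 ± 0.14, or 7.71-fold, limma adjusted p = 4.3e-17). In Ins2-positive cells it had 10.44, 10.44 and 10.85, against 7.94 and 7.83 in Ins2-negative cells (2.69 ± 0.16, limma adjusted p = 6.9e-15). The Cyp3a13 differences of these 2 sorts did not differ past the threshold (0.26 ± 0.21, limma adjusted p = 0.44). The gain was smaller in Tspan8-positive cells (1.02 ± 0.14) and was not seen in the Cea1 sort (0.06 ± 0.14, limma adjusted p = 0.80). Cyp3a13 fell in Pdpn-positive (-1.23 ± 0.14) and Gp2-positive cells (-1.46 ± 0.16). The other kept probes of Cyp3a13 had the same sign in every sort where it was called, though the one nearest the floor gave 1.37 in the Gad1 and 1.24 in the Ins2 sort. Its promoter window (RefSeq, GRCm38.p6, chr5:137921570-137921869, minus strand) is shown because, of the 10 P450 genes whose promoter windows were searched, it alone holds the AP-1 element TGANTCA, beginning 91 and 6 bases before the start.
Cyp3a13: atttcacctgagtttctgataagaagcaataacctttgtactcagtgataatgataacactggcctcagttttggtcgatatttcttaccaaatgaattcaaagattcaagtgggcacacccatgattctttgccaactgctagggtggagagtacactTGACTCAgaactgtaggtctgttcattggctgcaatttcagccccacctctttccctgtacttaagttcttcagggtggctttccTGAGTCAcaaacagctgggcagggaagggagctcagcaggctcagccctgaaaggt
Of the 5 Cyp3a members, 4 rose in Gad1-positive cells, 3 in Tspan8-positive and 2 in Ins2-positive cells, and 3 fell in Pdpn-positive cells. Among all genes, 20.1%, 19.4% and 17.3% rose in these 3 sorts and 20.0% fell in Pdpn-positive cells. Cyp3a57 rose by 2.09 ± 0.27 and Cyp3a25 by 1.58 ± 0.28 in Tspan8-positive cells, and Cyp3a11, the main Cyp3a enzyme of mouse liver, rose by 1.11 in Gad1-positive cells. Of 7 hepatocyte markers with a detected probe, 6 rose in Gad1-positive cells (summed level 12.48 to 12.72, against 10.26 to 10.79 in Gad1-negative cells), 5 in Ins2-positive cells (13.09 to 14.02, against 11.01 to 11.04 in Ins2-negative cells) and 6 fell in Pdpn-positive cells (10.91 to 11.08, against 12.40 to 12.55 in Pdpn-negative cells). Of 5 enterocyte markers with a detected probe, 4 rose in Gad1-positive (12.17 to 12.34, against 9.89 to 10.26 in Gad1-negative cells) and 4 in Ins2-positive cells (13.42 to 14.35, against 10.87 to 10.94 in Ins2-negative cells). The lists did not always go with Cyp3a13: in Gp2-positive cells, where it fell, 3 enterocyte markers rose and 0 fell (11.65 to 12.23, against 10.89 to 11.36 in Gp2-negative cells) and 2 hepatocyte markers rose and 3 fell. In Cea1-positive cells 4 hepatocyte markers rose and 1 fell, and 1 enterocyte marker rose, and in Tspan8-positive cells 4 hepatocyte markers rose and 3 fell while 1 enterocyte marker rose and 2 fell. In Pdpn-positive cells 3 enterocyte markers fell. No tested marker of either list was undetected throughout a sort, but Alb, Fgb and Fabp1 of the hepatocyte list and Fabp2 and Lct of the enterocyte list were not among the genes tested. Their part in the Cyp3a results was not tested.

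Family 1 holds the enzymes induced through the aryl hydrocarbon receptor, and its 2 members moved in opposite directions in the Pdpn and Gp2 sorts and both fell in the Cea1, Ins2 and Tspan8 sorts. Cyp1a2, a liver enzyme that clears caffeine, fell in 5 of 6 sorts. Gp2-positive cells had 4.20 and 4.58, both not detected, against 6.66, 7.02 and 7.38 in Gp2-negative cells, so that the gene was at least 5.84-fold lower (limma adjusted p = 1.1e-10). Tspan8-positive cells had 5.18, 5.26 and 4.78, against 7.81, 7.64 and 7.66 in Tspan8-negative cells (-2.63 ± 0.22, limma adjusted p = 5.2e-12). Pdpn-positive cells had 6.13, 5.79 and 5.75, against 7.66, 7.63 and 7.62 in Pdpn-negative cells (-1.75 ± 0.22, limma adjusted p = 8.6e-08). These 3 sorts showed clear gaps between the groups, while the falls of Cyp1a2 in the Cea1 (-0.81 ± 0.22) and Ins2 sorts (-0.87 ± 0.25) were smaller. In the Ins2 sort the groups overlapped, with 7.21, 6.24 and 6.07 in Ins2-positive cells, against 7.58 and 7.17 in Ins2-negative cells. That Cyp1a2 call was lost without Ins2-negative replicate 1 (-0.66, limma adjusted p = 0.12), without Ins2-positive replicate 3 (-0.65, limma adjusted p = 0.052) and with the Ins2 sort fitted alone (limma adjusted p = 0.12). In the Gad1 sort Cyp1a2 had 7.58, 8.10 and 7.52 in Gad1-positive cells, against 7.16, 7.28 and 7.24 in Gad1-negative cells, which did not pass (0.51 ± 0.22, limma adjusted p = 0.070). A second Cyp1a2 probe, averaging 6.32, did pass as higher in the Gad1 sort (0.77, limma adjusted p = 0.004). That probe gave -1.29 in the Ins2 sort (limma adjusted p = 4.1e-05) and was lower in the remaining sorts too.

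Cyp1b1, which oxidises oestradiol and is a family 1 enzyme of mesenchymal and other non-liver cells, rose in the Pdpn and Gp2 sorts. Pdpn-positive cells had 7.97, 7.80 and 8.05, against 5.24, 5.36 and 5.47 in Pdpn-negative cells (2.59 ± 0.19, or 6.00-fold, limma adjusted p = 1.2e-12). Gp2-positive cells had 7.59 and 7.38, against 6.21, 5.91 and 6.23 in Gp2-negative cells (1.37 ± 0.22, limma adjusted p = 3.4e-06). The Pdpn gain of Cyp1b1 was larger than the Gp2 gain by 1.22 ± 0.29 (limma adjusted p = 0.0018). It fell in the other sorts by smaller amounts. Cea1-positive cells had 4.95, 5.57 and 5.09, against 6.20, 6.20 and 6.14 in Cea1-negative cells (-0.97 ± 0.19, limma adjusted p = 0.00017). Gad1-positive cells had 5.03, 5.07 and 5.47, against 5.75, 5.84 and 5.91 in Gad1-negative cells (-0.64 ± 0.19, limma adjusted p = 0.0074), and Ins2-positive cells had 5.50, 5.86 and 5.62, against 6.47 and 6.31 in Ins2-negative cells (-0.73 ± 0.22, limma adjusted p = 0.0074). The Tspan8 difference of Cyp1b1 was -0.69 ± 0.19. The Gad1 call of Cyp1b1 did not pass under median scaling (-0.47, limma adjusted p = 0.15) or with the authors' normalized values (limma adjusted p = 0.091). The Ins2 call was lost without Ins2-negative replicate 1 (-0.65, limma adjusted p = 0.079) and with that sort fitted alone (limma adjusted p = 0.098).

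Beside the Pdpn gain of Cyp1b1, 7 of 8 fibroblast markers rose in Pdpn-positive cells, with a summed level of 12.82 to 13.45, against 10.41 to 10.54 in Pdpn-negative cells, and none was undetected there. In Gp2-positive cells 0 of the 8 rose and 4 fell (9.88 to 10.23, against 10.86 to 10.97 in Gp2-negative cells), with Col3a1 undetected in both groups. In Gad1-positive cells 2 rose and 1 fell, and in the Cea1, Ins2 and Tspan8 sorts 0 rose and 3, 2 and 3 fell. Their part in the Cyp1b1 result was not tested. The Gp2 sort also carried markers of other cells: 7 of 7 cortical epithelium markers rose in Gp2-positive cells (14.58 to 15.00, against 12.70 to 12.94 in Gp2-negative cells), and 10 of 10 thymocyte markers with a detected probe rose (13.70 to 14.10, against 10.10 to 11.72 in Gp2-negative cells). Of 7 mTEC markers 5 fell in Gp2-positive cells (13.58 to 14.03, against 15.09 to 15.26 in Gp2-negative cells), as did 5 of 8 macrophage and dendritic markers (10.46 to 10.83, against 11.82 to 12.01 in Gp2-negative cells). The mTEC markers moved in other sorts too. In Pdpn-positive and in Tspan8-positive cells 4 fell and 2 rose, and in Cea1-positive cells 4 fell and 0 rose. In Ins2-positive cells 1 fell and 2 rose, and in the Gad1 sort 0 were called. Cortical markers also moved, with 4 higher and 2 lower in Pdpn-positive cells and 2 higher and 0 lower in Gad1-positive cells. In each of the Cea1, Ins2 and Tspan8 sorts 2 fell, and 1, 1 and 0 rose. The part of these lists in the differences of the P450 genes was not tested. Beside the falls of Cyp1a2, Aire differed by -2.76 ± 0.15 in the Tspan8 sort, -2.26 ± 0.17 in the Gp2 sort, -1.32 ± 0.15 in the Pdpn sort, -0.96 ± 0.15 in the Cea1 sort, -0.47 ± 0.17 in the Ins2 sort and -0.10 ± 0.15 in the Gad1 sort. The part of Aire in the Cyp1a2 result was not tested.

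The promoter windows of both family 1 genes are printed because the genes are regulated by the same receptor and had opposite calls in the Pdpn and Gp2 sorts. That of Cyp1a2 (RefSeq, GRCm38.p6, chr9:57683606-57683905, minus strand) holds TATAAA beginning 29 bases before the start and no GCGTG. That of Cyp1b1 (RefSeq, GRCm38.p6, chr17:79715012-79715311, minus strand) holds GCGTG on the opposite strand, written CACGC, beginning 76 bases before the start, and no TATAAA.
Cyp1a2: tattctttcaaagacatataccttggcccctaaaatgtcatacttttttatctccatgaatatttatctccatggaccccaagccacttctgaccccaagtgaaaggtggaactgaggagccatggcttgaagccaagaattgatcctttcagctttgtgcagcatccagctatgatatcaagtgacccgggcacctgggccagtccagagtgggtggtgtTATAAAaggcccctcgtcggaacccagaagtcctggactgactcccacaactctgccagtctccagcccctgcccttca
Cyp1b1: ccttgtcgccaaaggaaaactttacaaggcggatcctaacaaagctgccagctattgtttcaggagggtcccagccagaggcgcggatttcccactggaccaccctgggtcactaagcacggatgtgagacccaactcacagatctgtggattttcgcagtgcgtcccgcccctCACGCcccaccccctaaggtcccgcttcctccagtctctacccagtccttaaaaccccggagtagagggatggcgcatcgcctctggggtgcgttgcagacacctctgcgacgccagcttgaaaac
Of the receptor's partners, Arnt fell in Ins2-positive (-0.94 ± 0.20) and Cea1-positive cells (-0.49 ± 0.18) and was not called in the other sorts. Ahrr, the repressor of the receptor, was called in 0 of the 6 sorts. Ahr itself was not among the genes tested. Cyp1a1, the third enzyme of the family, did not meet the detection rule.

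Cyp26a1 and Cyp24a1, which remove retinoic acid and vitamin D, were lower in several positive groups. Cyp26a1, which breaks down retinoic acid, had 6.41, 6.04 and 6.40 in Tspan8-positive cells, against 8.22, 7.65 and 8.02 in Tspan8-negative cells (-1.68 ± 0.20, limma adjusted p = 1.2e-08). It fell also in Pdpn-positive (-1.62 ± 0.20), Gp2-positive (-1.39 ± 0.23) and Cea1-positive cells (-0.92 ± 0.20), and differed by -0.15 ± 0.20 in the Gad1 sort (limma adjusted p = 0.61). A second Cyp26a1 probe gave smaller falls, of -0.83 in the Tspan8 sort, -0.54 in the Gp2 sort (limma adjusted p = 0.058) and -0.25 in the Cea1 sort (limma adjusted p = 0.41). The related Cyp26b1 was called in the Gp2 sort alone and in the other direction, with 5.69 and 6.24 in Gp2-positive cells, against 5.06, 4.26 and 4.27 in Gp2-negative cells, of which only the first was detected (1.43 ± 0.28, limma adjusted p = 9.9e-05). The Gp2 differences of Cyp26a1 and Cyp26b1 thus had opposite signs. Cyp24a1, the vitamin D 24-hydroxylase, had 4.74 and, not detected, 4.64 in Gp2-positive cells, against 6.09, 6.38 and 6.45 in Gp2-negative cells (-1.62 ± 0.34, limma adjusted p = 0.00021). Its falls in the Cea1 (-0.92 ± 0.30) and Tspan8 sorts (-0.76 ± 0.30) were lost when single arrays were left out, for example Cea1-positive replicate 3 (-0.57, limma adjusted p = 0.21) or Tspan8-positive replicate 2 (-0.60, limma adjusted p = 0.17). The activating hydroxylases Cyp27b1 and Cyp2r1 stayed near the floor and were called in 0 sorts. Vdr, the vitamin D receptor, rose in Ins2-positive (1.39 ± 0.14), Gad1-positive (0.84 ± 0.12) and Tspan8-positive cells (0.52 ± 0.12) and fell in Pdpn-positive (-0.65 ± 0.12) and Gp2-positive cells (-0.40 ± 0.14). Rarg, a retinoic acid receptor, rose most in Pdpn-positive (1.59 ± 0.19) and Tspan8-positive cells (1.31 ± 0.19).

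Among the 6 detected enzymes of cholesterol and bile acids, 4 fell in Gp2-positive cells and 3 in Pdpn-positive cells, with 0 higher in either. The shares of all genes that fell there were 22.0% and 20.0%, and 18.0% and 18.4% rose. Cyp8b1, the 12-alpha-hydroxylase of bile acid synthesis, had 7.08, 7.30 and 7.49 in Gad1-positive cells, against 5.20, 5.47 and 5.29 in Gad1-negative cells (1.97 ± 0.25, limma adjusted p = 5.4e-08). It rose also in the Tspan8 (1.94 ± 0.25) and Ins2 sorts (1.73 ± 0.28) and fell in the Pdpn (-1.47 ± 0.25) and Gp2 sorts (-1.14 ± 0.28). The Cyp8b1 groups did not overlap in any sort, though its Cea1 difference did not pass (0.61 ± 0.25, limma adjusted p = 0.062). Cyp27a1, the mitochondrial sterol 27-hydroxylase, had 6.90 and 6.35 in Gp2-positive cells, against 8.31, 8.33 and 8.11 in Gp2-negative cells (-1.62 ± 0.17, limma adjusted p = 1.9e-09), and rose by 0.83 ± 0.16 in Tspan8-positive cells. Cyp7b1, which hydroxylates oxysterols, fell by 1.08 in Gp2-positive cells (-1.08 ± 0.15, limma adjusted p = 2.9e-07). Cyp51, the lanosterol demethylase of cholesterol synthesis in all cells, had 7.61, 7.30 and 7.01 in Pdpn-positive cells, against 9.05, 8.77 and 8.64 in Pdpn-negative cells (-1.51 ± 0.19, limma adjusted p = 7.2e-08). It fell likewise in Gp2-positive cells (-1.28 ± 0.21). Nr1h4, the bile acid receptor, fell in the Pdpn (-1.03 ± 0.24) and Tspan8 sorts (-1.42 ± 0.24), was at least 2.15-fold lower in Gp2-positive cells, where it was undetected, and rose in the Gad1 sort (0.87 ± 0.24).

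Of the steroid hormone enzymes, Cyp17a1, the 17-alpha-hydroxylase and lyase of gonads and adrenal, was called in 5 sorts. Gad1-positive cells had 7.89, 8.37 and 8.45, against 6.61, 6.18 and 5.98 in Gad1-negative cells (1.98 ± 0.27, limma adjusted p = 2.3e-07). It rose also in Ins2-positive cells (1.48 ± 0.30). Gp2-positive cells had 4.80 and 5.77, against 7.01, 7.35 and 7.19 in Gp2-negative cells (-1.90 ± 0.30, limma adjusted p = 3.4e-06), and Cyp17a1 fell in Pdpn-positive cells too (-1.54 ± 0.27). Its fall in Tspan8-positive cells (-0.87 ± 0.27) was lost without Tspan8-positive replicate 3 (-0.58, limma adjusted p = 0.11) or Tspan8-negative replicate 2 (-0.69, limma adjusted p = 0.063). Cyp17a1 thus separated the Gad1 and Ins2 sorts from the Gp2 and Pdpn sorts. Cyp11a1, the cholesterol side-chain cleavage enzyme and a known autoantigen of human adrenal disease, had 4 probes that disagreed: the brightest rose by 1.34 ± 0.25 in Cea1-positive cells, where another gave -0.25, and in the Gp2 sort these probes gave 0.76 and -0.85. No direction is given for it. Cyp11b2 and Cyp21a1 were called in 0 sorts. Star, which delivers cholesterol to Cyp11a1, was called in 0 sorts as well.

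In family 4, whose members hydroxylate fatty acids, Cyp4a12b had 7.45, 7.84 and 7.53 in Tspan8-positive cells, against 4.85, 4.61 and 4.31 in Tspan8-negative cells (3.02 ± 0.23, limma adjusted p = 4.4e-13). Like Cyp2f2 it rose also in Pdpn-positive cells, with 6.63, 6.35 and 6.60, against 4.37, 4.39 and 5.21 in Pdpn-negative cells (1.87 ± 0.23, limma adjusted p = 4.6e-08). Its near copy Cyp4a12a fell at least 2.93-fold in Gp2-positive cells, where it was undetected, and rose by 1.23 ± 0.19 in Gad1-positive cells. Each of these genes had 1 probe, and whether it binds transcripts of the other gene was not checked. Cyp4f39, which makes the long omega-hydroxy fatty acids of skin barrier lipids, had 9.07, 9.32 and 8.95 in Tspan8-positive cells, against 7.25, 7.37 and 7.16 in Tspan8-negative cells (1.85 ± 0.18, limma adjusted p = 8.0e-11). It rose also in the Ins2 (1.55 ± 0.20) and Gad1 sorts (1.44 ± 0.18) and fell in the Pdpn sort (-0.71 ± 0.18). Others of its subfamily differed from each other: Cyp4f15 rose by 1.64 ± 0.20 in Tspan8-positive, 1.02 ± 0.23 in Ins2-positive and 1.02 ± 0.20 in Cea1-positive cells, while Cyp4f14 fell by 1.11 in Tspan8-positive cells (-1.11 ± 0.32) and rose by 1.38 ± 0.32 in Gad1-positive cells. Cyp4f18, a leukotriene B4 hydroxylase of mouse leukocytes, rose in the Ins2 (1.69 ± 0.25), Gad1 (1.53 ± 0.22), Tspan8 (1.36 ± 0.22) and Cea1 sorts (0.77 ± 0.22), while its other probe, near the floor, gave 0.17, 0.24 and 0.16 in the Ins2, Gad1 and Tspan8 sorts. Cyp4b1, a lung P450, passed in the Cea1 sort alone (0.86).

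Cyp4v3, a widely expressed enzyme, rose in the Gad1, Cea1, Ins2 and Tspan8 sorts by 0.51 to 1.22 and fell by 0.72 in Pdpn-positive cells. Cyp4f13, another fatty acid hydroxylase, rose by 0.66 to 0.81 in those 4 sorts, and its difference did not vary between sorts by the F test (limma adjusted p = 0.18). Under median scaling its Ins2 difference was gone (limma adjusted p = 0.99), and its Pdpn call (0.37 ± 0.14) was lost without any of 4 single arrays, with values of 0.26 to 0.34 when Pdpn-negative replicates 1 and 2 or Pdpn-positive replicates 2 and 3 were left out in turn.

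The Cyp2c, Cyp2e and Cyp2j subfamilies hold arachidonic acid and liver enzymes. Of 8 Cyp2c members, 3 rose in Gad1-positive cells, while 4 fell in Pdpn-positive and 4 in Tspan8-positive cells. Over all genes, 20.1% rose in the Gad1 sort, and 20.0% and 25.0% fell in the Pdpn and Tspan8 sorts. Cyp2c65 rose in the Gad1 (1.01 ± 0.22) and Ins2 sorts (0.97 ± 0.24) and was lower at least 1.84-fold in Pdpn-positive and at least 1.63-fold in Gp2-positive cells, where no array detected it. Its 3 other probes passed in none of these sorts, with 0.04 to 0.40 in the Gad1 sort. Cyp2c67 rose in Tspan8-positive cells (0.93 ± 0.26) and at least 2.32-fold in Ins2-positive cells, whereas Cyp2c70 fell in Tspan8-positive cells (-1.05 ± 0.19) and rose in Gad1-positive cells (0.73 ± 0.19). Cyp2c23, an epoxygenase of kidney, had 4.74 and, not detected, 4.24 and 4.16 in Cea1-positive cells, against 5.02, 5.45 and 5.77 in Cea1-negative cells (-1.03 ± 0.24, limma adjusted p = 0.00095), and was at least 2.37-fold lower in Gp2-positive cells. Cyp2e1, the ethanol-inducible enzyme of liver, had 6.22, 6.11 and 5.72 in Gad1-positive cells, against 4.64, 5.56 and 4.64 in Gad1-negative cells (1.07 ± 0.24, limma adjusted p = 0.00055). It was undetected in Tspan8-positive cells and there at least 2.07-fold lower. Cyp2e1 was also called lower in Pdpn-positive cells (-0.80) and in Gp2-positive cells (-1.09), where no array detected it. Cyp2j13 gave the largest gain of the family in the Gp2 sort. Gp2-positive cells had 7.47 and 8.02, against 6.37, 6.22 and 6.19 in Gp2-negative cells (1.48 ± 0.22, limma adjusted p = 1.6e-06). It rose also in Gad1-positive (1.73 ± 0.20), Ins2-positive (0.92) and Cea1-positive cells (0.71) and fell in Pdpn-positive cells (-1.34 ± 0.20). Under median scaling its Ins2 and Cea1 calls were lost. Cyp2j9, of the same cluster, rose in the Tspan8 (1.28 ± 0.21), Cea1 (0.95 ± 0.21) and Gad1 sorts (0.72). Its other probe, near the floor, gave 0.19, 0.43 and 0.09 there and passed in the Cea1 sort only (limma adjusted p = 0.046). The Gad1 call of Cyp2j9 was lost without Gad1-positive replicate 1 (0.57, limma adjusted p = 0.055). The orphan enzyme Cyp20a1 was the larger of the 2 falls in the Gad1 sort, with 5.04, 5.28 and, not detected, 4.21 in Gad1-positive cells, against 5.73, 5.81 and 5.82 in Gad1-negative cells (-0.94 ± 0.25, limma adjusted p = 0.0022).

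The 14 members called in 0 sorts were Cyp11b2, Cyp21a1, Cyp27b1, Cyp2b9, Cyp2c54, Cyp2c55, Cyp2d40, Cyp2j11, Cyp2r1, Cyp3a44, Cyp46a1, Cyp4a14, Cyp4f40 and Cyp4x1. Cyp2u1, Cyp39a1, Cyp2j6, Cyp2c50, Cyp2d38-ps and Cyp4b1-ps2 were called only where the call was lost without a single array: without Gp2-negative replicate 2 for Cyp2u1 (-0.33, limma adjusted p = 0.17), without Cea1-negative replicate 2 for Cyp39a1 (-0.31, limma adjusted p = 0.32), without Gad1-positive replicate 1 for Cyp2j6 (0.30, limma adjusted p = 0.062) and Cyp4b1-ps2 (0.40, limma adjusted p = 0.16), without Tspan8-negative replicate 3 for Cyp2c50 (-0.39, limma adjusted p = 0.13) and without Ins2-positive replicate 2 for Cyp2d38-ps (0.33, limma adjusted p = 0.15). At the edge of the detection rule, Cyp21a1, Cyp27b1, Cyp2j6, Cyp2r1, Cyp46a1 and Cyp4x1 entered with 2 detected arrays in their best group. Of the 17 genes that did not enter, 14 were detected on 1 array of their best group, and Cyp2c68, Cyp3a41b and Cyp4f41-ps on 0. These 17 included Cyp1a1, Cyp7a1, the first enzyme of bile acid synthesis, and Cyp2c29, an abundant P450 of mouse liver. They were not tested.

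Of 16 conjugation and later-step genes, 13 rose and 0 fell in Gad1-positive cells, and 5 rose and 9 fell in Pdpn-positive cells. In Ins2-positive cells 9 rose and 2 fell, in Cea1-positive cells 6 rose and 2 fell, in Tspan8-positive cells 6 rose and 6 fell, and in Gp2-positive cells 3 rose and 5 fell. Over all genes, 20.1% rose and 19.7% fell in the Gad1 sort, and 18.4% and 20.0% in the Pdpn sort. The shares were 17.3% and 18.5% in the Ins2 sort and 13.9% and 16.4% in the Cea1 sort. In the Tspan8 sort they were 19.4% and 25.0%, and in the Gp2 sort 18.0% and 22.0%. The microsomal epoxide hydrolase Ephx1 and the glutathione transferase Gsto1 rose in all 6 sorts, Ephx1 by 0.77 to 2.12 and Gsto1 by 0.98 to 4.72. Gsta4, a glutathione transferase for lipid aldehydes, rose by 4.36 ± 0.17 in Tspan8-positive and 3.33 ± 0.19 in Ins2-positive cells and was not called in the Gp2 sort (0.21 ± 0.19). Of 8 electron transfer and haem genes with a detected probe, Alas1, the first enzyme of haem synthesis, rose in Ins2-positive (1.42 ± 0.12), Gad1-positive (1.05 ± 0.11), Tspan8-positive (0.59 ± 0.11) and Cea1-positive cells (0.38 ± 0.11) and fell in Pdpn-positive (-0.63 ± 0.11) and Gp2-positive cells (-0.46 ± 0.12). Over that whole list, 3 rose and 0 fell in Ins2-positive cells, 2 rose and 2 fell in Gad1-positive cells, 2 rose and 1 fell in Cea1-positive cells, 1 rose and 3 fell in Tspan8-positive cells, 2 rose and 4 fell in Gp2-positive cells, and 0 rose and 4 fell in Pdpn-positive cells. The shares of all genes in each sort are those given above, and counts of so short a list were not tested against them. P450 reductase itself, Por, was not among the genes tested.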

How the data were processed

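Total RNA of sorted mTECs was read on Illumina mouse bead arrays. The deposited unnormalized table gives 1 summarised signal intensity per probe and array. A second deposited table gives the authors' normalized intensities, which were put on the log2 scale here. Each array also has a deposited detection p-value per probe. The software behind these values is not given in the sources used here. One further per-sample column was not used, because it repeats p-values of another array. Probes of the tables were linked by their values (46089 of 46089) and named from the platform annotation (35667 with 1 gene symbol, 10422 with none).

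Intensities were background-corrected and quantile-normalized with neqc (limma 3.58.1, R 4.3.3; offset 16; negative controls inferred from detection p-values). The probe with the highest mean stood for its gene among 34083 probes kept. One model of group means for 12 groups and 34 arrays (22 residual degrees of freedom, moderated with trend) gave positive minus negative cells per sort. Contrasts of 2 sorts' differences and the F test over sorts came from the same fit, each adjusted over 16972 genes. Groups of 2 or 3 arrays limit the precision. The members, lists and alternatives were chosen with earlier results of these data known, so they are no independent support. Given array by array were Cyp2b19, Cyp2f2 and the 2 largest rises and falls among called members of each sort. Other genes given by array in the text were picked by role after their values were seen. The limma fit was tried on simulated log2 values with independent normal noise and known changes in the Tspan8 sort. These values held no detection floor, pairing or correlation between arrays. The trial therefore cannot show how such features affect the p-values.

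Same-numbered Pdpn-positive and Pdpn-negative arrays deviated together weakly (correlations 0.20, 0.16 and 0.20, against -0.15 to -0.05 for arrays of unlike number). The numbers may thus pair those samples, which the labels do not say. The Pdpn differences, SE and adjusted p-values given come from the fit without pairing. With a replicate block the Pdpn count was 32, as without it. Alternatives were median scaling, no background correction, other filters, other probe choices, the authors' values, each sort alone, a replicate block and leaving out arrays.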

Additional observations from a re-analysis of the deposited data

Results flagged for a closer look

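For 28 P450 genes, 1 sort was called higher and another lower, and the contrast of their differences passed (limma adjusted p between 2.1e-17 and 8.0e-04). Of all genes, 27.6% had such opposite calls, and opposite calls by themselves favour a passing contrast. Groups hold at most 3 arrays, so no array was tested as an outlier. The pair of sorts given for each gene is the one with the highest and the lowest difference, chosen after the values were seen.

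The Gad1 difference exceeded the Gp2 difference by 4.41 on the log2 scale for Cyp3a13, 3.88 for Cyp17a1, 3.01 for Cyp4a12a, 2.69 for Cyp4f14 and 1.71 for Cyp2b10. The Gad1 difference exceeded the Pdpn difference by 3.44 for Cyp8b1, 3.07 for Cyp2j13, 2.11 for Cyp51, 2.09 for Cyp3a11, 2.02 for Cyp2c65, 1.96 for Cyp2c37 and 1.55 for Cyp11b1. Against the Tspan8 sort it was higher by 2.23 for Cyp2e1 and 1.78 for Cyp2c70.

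The Tspan8 difference exceeded the Pdpn difference by 4.24 for Cyp2g1, 4.01 for Cyp2d9, 3.01 for Cyp2a5, 2.56 for Cyp4f39 and 2.54 for Cyp3a25. It exceeded the Gp2 difference by 2.45 for Cyp27a1. The Ins2 difference exceeded that of the Pdpn sort by 2.34 for Cyp2d26, 2.32 for Cyp4f18, 1.94 for Cyp4f16 and 1.94 for Cyp4v3, and that of the Gp2 sort by 2.57 for Cyp2s1. The Cea1 difference exceeded the Gp2 difference by 1.43 for Cyp7b1 and the Pdpn difference by 2.49 for Cyp11a1, whose probes disagree. Probes disagreed for others too: in the Ins2 sort the other Cyp4f16 probes gave 1.23, -0.12 and -0.26 (0.95 on the probe used) and the other Cyp2d26 probes 0.24 and 0.28 (1.64), and the other Cyp2b10 probe gave -0.40 in the Gad1 sort and 0.33 in the Gp2 sort.

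The Pdpn difference of Cyp1b1 exceeded its Cea1 difference by 3.56. The Cea1 rise of Cyp7b1 (0.35) was lost without any of 4 single arrays, for example Cea1-positive replicate 3 (0.23, limma adjusted p = 0.27). The Pdpn fall of Cyp2d9 (-0.91) was lost without Pdpn-positive replicate 2 (-0.62, limma adjusted p = 0.14), and the Gad1 rise of Cyp51 (0.59) without Gad1-negative replicate 1 (0.43, limma adjusted p = 0.11). The Pdpn falls of Cyp2d26 (-0.70) and Cyp4f18 (-0.63) were lost without Pdpn-negative replicate 3 (-0.60, limma adjusted p = 0.12) and Pdpn-positive replicate 2 (-0.48, limma adjusted p = 0.14). The Gp2 falls of Cyp4f14 (-1.31) and Cyp2b10 (-0.91) were lost without Gp2-positive replicate 1 (-0.59, limma adjusted p = 0.29, and -0.69, limma adjusted p = 0.13). The Gad1 rises of Cyp2b10 (0.80) and Cyp11b1 (0.67) were lost without Gad1-positive replicate 1 (0.53, limma adjusted p = 0.12, and 0.47, limma adjusted p = 0.22).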

How the results depend on the processing

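Every alternative count of called P450 genes stayed within 1.5 times of that reported. Leaving out 1 array in turn gave 26 to 32 genes in the Pdpn sort, 26 to 29 in the Gp2 sort, 29 to 35 in the Gad1 sort, 23 to 28 in the Cea1 sort, 27 to 33 in the Ins2 sort and 35 to 38 in the Tspan8 sort. Median scaling gave 29, 31, 33, 22, 30 and 38 in the same order of sorts, and the Ins2 split of 27 higher and 4 lower became 22 and 8. With the replicate block the counts were 32, 31, 36, 29, 33 and 40. Same-numbered arrays correlated at 0.00 to 0.24 outside the Pdpn sort. In the Cea1 sort the values were 0.08, 0.21 and 0.14, not far from those of the Pdpn sort. Whether arrays are paired in any sort cannot be settled from such values. Each sort fitted alone gave 38, 23, 33, 24, 23 and 41, and the authors' normalized values, with the further Ins2-negative array, gave 32, 30, 32, 23, 33 and 39. Of 436 alternative values of single genes chosen for description array by array, 427 kept their side of the threshold, 7 lost it, 2 gained it and 0 turned sign. Most of these genes were picked for the largest differences of a sort, so this share does not measure how firm other calls are. Over all members, 43 of 193 calls were lost without some single array and 29 were gained. Of the 64 calls with another kept probe, 49 had the same sign in all of them. A block for slide was not run, since the files used here give no slide. Groups of 2 arrays (Gp2-positive, Ins2-negative) and signals near the floor limit what could be called.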

Other observations

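Ptgis, the prostacyclin synthase and a P450 enzyme whose symbol does not start with Cyp, rose by 1.87 ± 0.31 in Pdpn-positive cells and fell by 1.20 in Tspan8-positive cells (-1.20 ± 0.31), and Tbxas1, the thromboxane synthase and likewise a P450 enzyme, was called in 0 sorts. Of the enzymes that make retinoic acid, Aldh1a1 rose in Pdpn-positive (2.17 ± 0.23), Ins2-positive (1.20 ± 0.26), Tspan8-positive (1.04 ± 0.23) and Cea1-positive cells (0.79 ± 0.23). Aldh1a3 fell in Gp2-positive (-2.15 ± 0.20), Gad1-positive (-0.97 ± 0.18), Ins2-positive (-0.82 ± 0.20) and Cea1-positive cells (-0.65 ± 0.18) and rose in Tspan8-positive cells (0.51 ± 0.18). Crabp2, a carrier of retinoic acid, rose by 1.55 ± 0.21 in both Gad1-positive and Tspan8-positive cells. Over the 8 tested genes of substrate supply, 2 rose and 0 fell in the Pdpn sort, 0 rose and 2 fell in the Gp2 sort, and 3 rose in each of the others, where 1 or 2 fell. These counts were not tested against the shares of all genes in each sort, which are given with the family counts.

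Among the conjugating enzymes, Nqo1, a quinone reductase, rose in Gad1-positive cells (1.07 ± 0.20) and fell in Pdpn-positive (-1.22 ± 0.20), Ins2-positive (-1.10 ± 0.22), Cea1-positive (-1.05 ± 0.20) and Tspan8-positive cells (-0.88 ± 0.20). Fmo1, a flavin monooxygenase that acts beside P450 enzymes, rose in Gp2-positive (2.16 ± 0.19), Gad1-positive (1.70 ± 0.17) and Pdpn-positive cells (1.43 ± 0.17) and fell in Tspan8-positive cells (-1.04 ± 0.17). These genes were picked after their values were seen. All adjusted p-values behind these calls are those of limma over all genes.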
